A study of Mus musculus with 5 samples.

Results

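The comparison described here set whole lungs of ventilated Cldn4 knockout mice with the higher injury (KO_VILIhigh) against whole lungs of ventilated wild type mice (WT_VILI). It holds every gene of the authors' deposited table whose mean abundance over both groups reached a logCPM of 1 (log2 of CPM, read counts scaled to library size), which is 13724 of 21590 genes. Both groups had a mixed 129S6, C57BL/6 and BALB/c background and were ventilated for 2 h at 40 cmH2O, so both carry the response to ventilation itself, and they differ by genotype and by injury together. The other groups of the series are unventilated wild type (WT_noVILI), unventilated knockout (KO_noVILI) and ventilated knockout with injury like that of wild type (KO_VILIlow), on the same background. Animal ages, and how the Cldn4 allele was made, are not given in the sources used here. The design text gives 2 libraries per group, and it does not say whether a library is 1 mouse. The study placed the knockouts in the low and high groups by injury, an outcome, so this comparison describes the most injured knockouts and not knockouts at large.

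Cldn4 encodes claudin-4, a tight junction protein that seals the space between epithelial cells, and alveolar epithelium makes more of it when the lung is stretched. Ventilation at high pressure overstretches alveoli. Stretched or leaking lung is known to switch on early response transcription factors within minutes, then chemokines that draw neutrophils and monocytes, while clotting, matrix turnover and airway secretion also change. In whole lung RNA, fewer cells of a type and less RNA per cell cannot be told apart, and the same holds for more cells and more RNA per cell.

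The deposited tables hold 1 fold change, mean abundance and p per gene and no value per library, so depth and replicate spread are unknown, and each group has 1 value per gene here, rebuilt in CPM from fold change and abundance. The labels list WT_noVILI under this table. Over 10562 genes with a logCPM of at least 3 in every table, the rebuilt reference level lay a median of 0.045 log2 from WT_VILI and 0.203 log2 from WT_noVILI after centring, so WT_VILI is used as the reference. Defining lung markers were present in both groups, with Ager (alveolar type 1) at 1677 CPM in WT_VILI and 1921 CPM in KO_VILIhigh and Cdh5 (endothelium) at 1251 and 1104 CPM. The Y-linked gene Ddx3y stood at 114 CPM in WT_VILI and 90.7 CPM in KO_VILIhigh, and at 0.421 CPM or less in both unventilated groups. Both groups compared here thus had this marker, and both unventilated groups were near 0. The X-linked gene Xist ran the other way. Its unventilated levels were 890 CPM (wild type) and 505 CPM (knockout). After ventilation they were 5.95 CPM (wild type), 4.08 CPM (low-injury knockout) and 2.56 CPM (high-injury knockout). Ventilated and unventilated groups therefore differed in sex markers as well as in ventilation. Every level set side by side across them below carries that difference, and its part was not tested. Of 10 sex-linked genes 0 were called between KO_VILIhigh and WT_VILI by the authors' edgeR test, 3 had an unadjusted p under 0.05, and the median log2 fold change was -0.45.

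Cldn4 checked the genotype labels. Its rebuilt level was 8.98 CPM in WT_noVILI, 0.14 CPM in KO_noVILI, 139 CPM in WT_VILI, 0.0212 CPM in KO_VILIlow and 0.121 CPM in KO_VILIhigh. All 3 knockout groups were near 0, and ventilated wild type was the highest group (adjusted p = 2.89e-94 for KO_VILIhigh against WT_VILI, the authors' edgeR test). No fold is given, since a level under 0.5 CPM makes the fitted fold change neither an estimate nor a bound. Of the 20 measured genes nearest to Cldn4 on chromosome 5, 10 on each side, 0 were called by the authors' edgeR test and 1 had an unadjusted p under 0.05. Of the nearest 100, 4 were called, among them Hspb1 and Ccl24.

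Of the 13724 genes, 329 (2.4%) passed a deposited adjusted p of 0.05, 237 (1.73%) higher in KO_VILIhigh and 92 (0.67%) lower. Fold changes and p-values given for this comparison are those of the authors' deposited table, unless called approximate. The median log2 fold change was 1.34 among the genes called higher and -1.11 among those called lower, and 184 and 53 of them differed by at least 2-fold. Over all 13724 genes the median was 0.00, with quartiles of -0.23 and 0.21, and 1661 genes had an unadjusted p under 0.05 in the authors' edgeR test. The genes called higher included H2-K2, Reg3g, H2-M2, Bpifa1, Adamts4, Cxcl3, Ccl2 and Cxcl2, which encode antigen-presenting molecules, airway defence proteins, a matrix protease and chemokines. With 2 libraries per group, p-values measure the spread between those libraries, which may be technical.

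**Figure D1:**
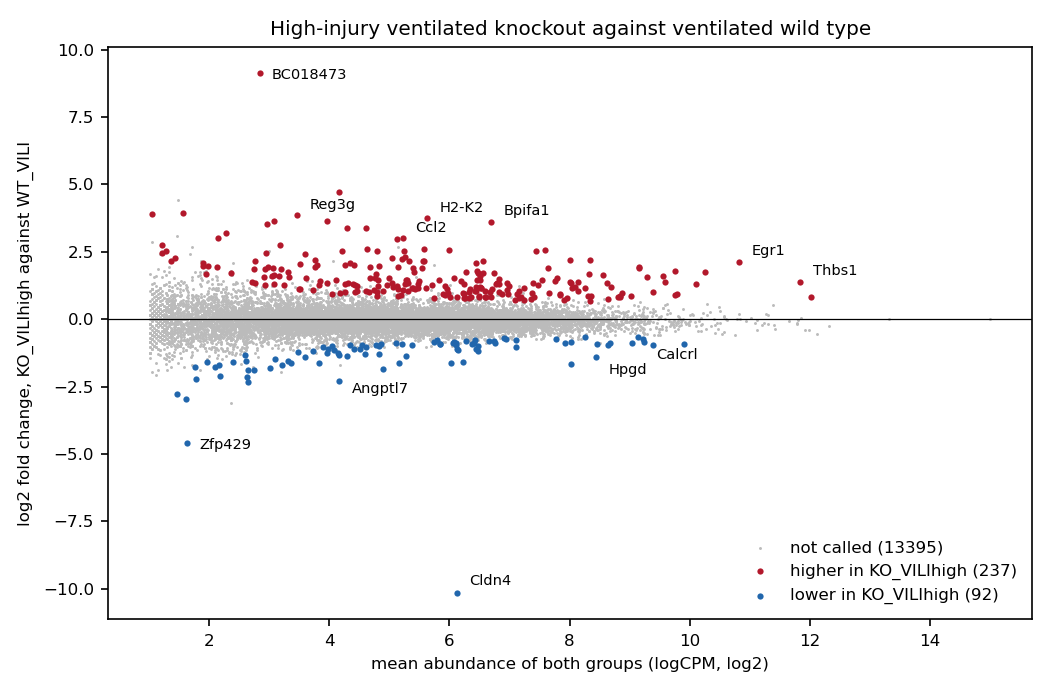
Each point is 1 of the 13724 genes, with its mean abundance (logCPM, horizontal axis) and its log2 fold change between KO_VILIhigh and WT_VILI (vertical axis). The 237 genes called higher outnumber the 92 called lower, called genes occur at low and at high abundance, and Cldn4 stands apart at the bottom. The called points for Cldn4, Zfp429, BC018473, Ucp1 and Ly6k rest on a group under 0.5 CPM.

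Several early response transcription factors were higher in KO_VILIhigh. In the EGR and NAB list 3 of 5 members, Egr1, Egr2 and Egr3, were called higher and 0 lower, against 1.73% and 0.67% over all genes, and the list median was 1.60 against 0.00 over all genes. Egr1, a zinc finger factor switched on by stretch and growth signals, stood at 673 CPM in WT_VILI and 2956 CPM in KO_VILIhigh, a log2 fold change of 2.13 (approximate SE 0.23, adjusted p = 3.3e-17, edgeR). Egr3 stood at 19.8 and 73.9 CPM and Egr2 at 45.4 and 137 CPM. Of their co-repressors, Nab2 had a log2 fold change of 0.90 that missed the threshold (adjusted p = 0.0798), and Nab1 one of -0.29.

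Of 15 FOS, JUN, ATF and MAF factors, the subunits of the AP-1 complex and their relatives, 7 were called higher and 0 lower (median 0.77). Fosb went from 91.4 CPM in WT_VILI to 419.9 CPM in KO_VILIhigh (log2 fold change 2.20, adjusted p = 6.2e-16). Fosl1 went from 17.4 to 77.01 CPM, Fos from 238 to 908 CPM and Junb from 239 to 900.3 CPM. Atf3, a stress-induced member of the family, went from 221 to 564 CPM. The 2 members with the highest logCPM that did not pass were Jun, with a log2 fold change of 0.56 (adjusted p = 0.199), and Jund, with 0.53 (adjusted p = 0.223).

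Among 31 other early response genes, 20 were called higher and 0 lower (median 1.04). The synaptic and immune gene Arc was 11.2 CPM in WT_VILI and 64.3 CPM in KO_VILIhigh (log2 fold change 2.53, adjusted p = 1.62e-19). Ier2 was 153 and 485 CPM, the orphan nuclear receptor Nr4a1 317 and 934 CPM, the kinase Pim1 35.6 and 120.2 CPM, and the antiproliferative gene Btg2 430.2 and 1106 CPM. Each of them was at its highest level of all 5 groups in KO_VILIhigh. Of 11 KLF factors 2 were higher and 1 was lower (median -0.01): Klf2, which laminar flow maintains in endothelium, was 42.3 CPM in WT_VILI and 79.02 CPM in KO_VILIhigh (adjusted p = 0.00329), while Klf15 fell from 118 to 55.6 CPM (adjusted p = 0.0183). In WT_noVILI, Klf2 stood at 236 CPM, so its level in KO_VILIhigh was above ventilated and below unventilated wild type.

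Several feedback regulators of these pathways were also higher. Of 17 MAP kinase phosphatases, Sproutys and Spreds, 4 were called higher and 0 lower (median 0.52). Dusp5, a phosphatase that turns off nuclear ERK, was 7.8 CPM in WT_VILI and 32.8 CPM in KO_VILIhigh (log2 fold change 2.07, adjusted p = 3.82e-09), and Dusp6 had a log2 fold change of 0.96, Dusp1 one of 0.90 and Spry2 one of 0.82. Of 14 regulators of mRNA decay, 2 passed, both of which destroy cytokine mRNA: Zfp36 (tristetraprolin) was 392 and 1344 CPM, and Zc3h12a (regnase-1) 25.9 and 58.4 CPM. The relatives Zfp36l1 and Zfp36l2 had log2 fold changes of 0.48 and 0.08 and were not called.

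Chemokines were among the genes with the largest rises. Of 21 CC chemokines and receptors, 8 were called higher and 0 lower (median 0.94). Ccl2, which draws CCR2-bearing monocytes, stood at 0.685 CPM in WT_noVILI, 0.857 CPM in KO_noVILI, 8.32 CPM in WT_VILI, 11.5 CPM in KO_VILIlow and 66.6 CPM in KO_VILIhigh. The KO_VILIhigh level was therefore above all 4 other groups (log2 fold change against WT_VILI 3.00, approximate SE 0.28, adjusted p = 3.55e-24, edgeR). Ccl7, a neighbouring gene that acts on the same receptor, went from 7.09 CPM in WT_VILI to 42.6 CPM in KO_VILIhigh, Ccl3 from 12.8 to 64.1 CPM, Ccl4 from 2.34 to 15.8 CPM and Ccl22 from 7.71 to 30.8 CPM. The CC chemokine with the highest logCPM that was not called was Ccl6 (179 and 174 CPM).

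Of 18 CXC chemokines and receptors, 5 were called higher and 0 lower (median 0.71). Cxcl1, Cxcl2 and Cxcl3, ligands of the neutrophil receptor CXCR2, stood at 13.4, 7.84 and 0.974 CPM in WT_VILI and at 81.9, 62.4 and 7.92 CPM in KO_VILIhigh. Their log2 fold changes were 2.61, 2.99 and 3.02 (adjusted p = 1.58e-13, 5.38e-18 and 2.25e-05). Cxcl13, a B cell chemokine, was 1.82 and 6.98 CPM, and Ppbp, a platelet chemokine, 4.07 and 12.4 CPM. The members with the highest logCPM that were not called were Cxcl12, which had a log2 fold change of 0.09, and Cxcl15 (Il8 in the table), a chemokine of lung epithelium, with one of 0.28.

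The DNA before the start sites of several of these genes is shown because Cxcl1, Cxcl2 and Cxcl3 share the same letters there. RefSeq windows of 250 bases upstream of the first listed start (build GRCm38.p6) were at hand for 10828 of the 13724 genes, 178 of those called higher and 74 of those called lower. The kappa-B site, the binding motif of NF-kB, was searched on both strands and is in capitals in the first 4 stretches, each written 5′ to 3′ along the gene's strand. Cxcl1 lies at chr5:90891144-90891214, Cxcl2 at chr5:90903772-90903842, Cxcl3 at chr5:90785998-90786068 and Lif at chr11:4257360-4257429, all on the plus strand. In Dusp5 (chr19:53529033-53529112, plus strand) and Zfp36 (chr7:28379247-28379316, minus strand) the capitals mark CArG boxes, the binding motif of serum response factor, and in Dusp5 the run covers 2 boxes side by side. In Areg (chr5:91139508-91139575, plus strand) and Ch25h (chr19:34475172-34475239, minus strand) they mark TGACGTCA, the cyclic AMP response element.
Cxcl1: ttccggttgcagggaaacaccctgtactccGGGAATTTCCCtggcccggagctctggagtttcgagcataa
Cxcl2: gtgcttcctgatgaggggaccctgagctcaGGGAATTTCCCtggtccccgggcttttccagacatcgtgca
Cxcl3: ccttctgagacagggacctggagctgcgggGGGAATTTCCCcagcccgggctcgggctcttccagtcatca
Lif: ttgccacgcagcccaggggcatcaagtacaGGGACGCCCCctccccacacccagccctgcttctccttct
Dusp5: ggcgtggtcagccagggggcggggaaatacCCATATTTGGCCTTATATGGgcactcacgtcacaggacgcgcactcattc
Zfp36: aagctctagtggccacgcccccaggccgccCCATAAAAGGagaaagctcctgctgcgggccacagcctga
Areg: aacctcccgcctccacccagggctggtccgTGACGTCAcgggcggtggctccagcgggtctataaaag
Ch25h: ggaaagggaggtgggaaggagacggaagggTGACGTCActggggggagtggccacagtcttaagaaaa

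A kappa-B site was found in 16.9% of the 178 windows of genes called higher, 13.5% of the 74 of genes called lower, 8.99% of the 10828 and 7.01% of all 27025 windows. A CArG box was found in 3.37%, 2.7%, 1.19% and 1.4% of the same sets, and TGACGTCA in 3.93%, 4.05%, 2.6% and 1.62%. TGACTCA, an AP-1 motif, was in 7.3%, 1.35%, 3.23% and 4.43%, with Il6, Lif, Il1rn, Mt2, Plaur and Srxn1 among the genes called higher that hold it. The forward letters TATAAA were in 15.7%, 5.41%, 4.18% and 8.12%. Both strands were searched except for TATAAA, motifs were scored separately, and a window can hold several. Among the CXC chemokines called higher, the windows of Ppbp and Cxcl13 held no kappa-B site. A match describes letters only, and binding was not measured.

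Several cytokines were higher as well. Of 20 genes of the IL-6 family and its SOCS inhibitors, 5 were called higher and 0 lower, although the list median was 0.04. Lif, a cytokine that protects lung epithelium, was 18.5 CPM in WT_VILI and 109 CPM in KO_VILIhigh (log2 fold change 2.56, adjusted p = 3.55e-24). Il6 was 13.01 and 61.4 CPM, Osm 4.89 and 22.2 CPM, and the inhibitor Socs3 117 and 531 CPM. The shared receptor chain Il6st (472 and 456 CPM) and the kinase Jak1 (338 and 338 CPM) were not called. Ligands and inhibitors were thus the members that passed.

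Of 22 IL-1 family genes, 3 were called higher and 0 lower (median 0.33). Il1b, the main secreted form, was 43.7 CPM in WT_VILI and 145 CPM in KO_VILIhigh (log2 fold change 1.73, adjusted p = 2.6e-07), and its natural antagonist Il1rn was 11.7 and 45.3 CPM. Nlrp3, the inflammasome sensor that leads to IL-1 release, was 12.2 and 29.9 CPM. Of 22 TNF family genes and receptors, 3 were called higher and 0 lower (median 0.35). Tnf itself was 8.49 and 34.1 CPM (adjusted p = 3.76e-08), while its receptor Tnfrsf1a had a log2 fold change of 0.32 and was not called.

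Of 28 NF-kB subunits and inhibitors, 4 were called higher and 0 lower (median 0.53), and all 4 regulate the pathway. Nfkbiz, a nuclear co-factor, was 59.4 CPM in WT_VILI and 166 CPM in KO_VILIhigh. Tnfaip3 (A20), which switches the pathway off, was 93.8 and 192 CPM, Bcl3 18.7 and 47.1 CPM and Nfkbid 2.89 and 10.5 CPM. The subunit Rela and the inhibitor Nfkbia had log2 fold changes of 0.45 and 0.54 that did not pass (adjusted p = 0.423 and 0.304). Of 24 innate sensors, 3 were called higher and 0 lower (median 0.39): Tlr2 was 55.2 and 126 CPM, Cd14, which hands endotoxin to its receptor, 43.6 and 138 CPM, and Trem1, found on neutrophils and monocytes, 16.6 and 39.2 CPM.

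Of 14 EGF family ligands and receptors, 3 were called higher and 0 lower (median 0.10), all of them ligands. Areg was 65.4 CPM in WT_VILI and 162 CPM in KO_VILIhigh, Hbegf 114 and 328 CPM and Ereg 3.56 and 13.2 CPM (adjusted p = 1.98e-07, 2.6e-07 and 0.0408). The proteases that release such ligands, Adam17 and Adam10, were not called, with log2 fold changes of 0.05 and -0.36. Among 26 other growth factors 2 were higher and 0 lower (median -0.07), namely the macrophage growth factor Csf1 (34.5 and 100.2 CPM) and the stress cytokine Gdf15 (13.2 and 30.9 CPM).

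Of 29 YAP and SRF targets, genes that respond to cytoskeletal tension, 4 were called higher and 0 lower, with a median of 0.04 near that of all genes. Thbs1, a matricellular protein that activates TGF-beta, stood at 266, 206, 2028, 3189 and 5306 CPM in WT_noVILI, KO_noVILI, WT_VILI, KO_VILIlow and KO_VILIhigh. It was higher in all 3 ventilated groups than in both unventilated groups, and highest in KO_VILIhigh (log2 fold change against WT_VILI 1.39, adjusted p = 3.47e-10). Tagln and Actg1, actin cytoskeleton genes, had log2 fold changes of 0.77 and 0.70. Ankrd1, which is also counted among the cardiac muscle markers below, had one of 0.81. Ctgf, a classical YAP target, was 971 and 1074 CPM and was not called. Cyr61, its close relative, is counted among the early response and matricellular genes and not in this list. It was 631 and 1563 CPM (adjusted p = 1.54e-05, edgeR).

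Of 20 coagulation genes 5 were called higher and 0 lower (median 0.44), among them activators of plasminogen and a receptor. Plau (urokinase) was 8.16 CPM in WT_VILI and 47.4 CPM in KO_VILIhigh (log2 fold change 2.54, adjusted p = 8.18e-15). Its receptor Plaur was 95.2 and 241 CPM, and tissue plasminogen activator Plat 63.4 and 156 CPM. Both activators and the urokinase receptor were thus called higher. Clotting factor F5 was 5.04 and 15.1 CPM, and the anticoagulant receptor Thbd, with 981 and 829.5 CPM, was not called.

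Matrix and adhesion genes that were called were all higher, with 8.0% of matrix proteases and inhibitors, 9.68% of matricellular proteins and collagens and 4.55% of adhesion molecules against 1.73% over all genes. Of 25 matrix proteases and inhibitors, 2 were higher and 0 lower (median 0.16): Adamts4, an aggrecanase that cleaves versican, was 0.732, 0.714, 3.47, 13.5 and 35.98 CPM over the 5 groups in the order used for Thbs1. Its level in KO_VILIhigh had a log2 fold change of 3.37 from WT_VILI (adjusted p = 2.43e-05). Timp1 was 4.54 and 15.4 CPM, while Timp2 and Timp3 had log2 fold changes of -0.10 and -0.06 and were not called. Of 31 matricellular proteins and collagens, 3 were higher and 0 lower (median -0.04), with the hyaluronan synthase Has1 at 33.4 and 140.1 CPM and osteopontin (Spp1) at 20.9 and 57.8 CPM. Of 22 adhesion molecules 1 was called, Selp (P-selectin of platelets and endothelium), at 3.81 and 20.3 CPM (adjusted p = 0.00719), and Icam1 was not (646 and 861 CPM).

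Prostaglandin genes changed in opposite directions. Of 25 members 2 were higher and 2 lower (median 0.13). Both called higher act in the synthesis of prostaglandin E2, Ptgs2 (cyclooxygenase-2) at an earlier step and Ptges at the last. Ptgs2 was 322 CPM in WT_VILI and 570.3 CPM in KO_VILIhigh, and Ptges 18.4 and 44.05 CPM. Hpgd, which breaks prostaglandins down, was the largest fall of the list, at 548, 551, 502, 395 and 189.9 CPM over the 5 groups. Its lowest level was in KO_VILIhigh (log2 fold change from WT_VILI -1.40, adjusted p = 1.54e-07). The receptor Ptgfr fell from 28.1 to 10.96 CPM.

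Vasoactive and vessel genes also split. Of 21 vasoactive genes 2 were higher and 1 lower. Adrenomedullin (Adm), which tightens endothelial junctions, was 15.1 CPM in WT_VILI and 41.2 CPM in KO_VILIhigh, and its receptor Calcrl was lower, at 778 and 429 CPM (adjusted p = 1.17e-05 and 0.0181). The bradykinin receptor Bdkrb2 was 5.45 and 31.6 CPM, and it was also called in the unventilated knockout. Of 32 angiogenic receptors and SOXF factors 2 were higher and 1 lower, with Dll4 at 63.8 and 115 CPM, and Angpt1, which stabilises vessels, at 89.8 and 48.9 CPM (adjusted p = 0.00528).

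Several stress response genes were called, with 15.6% of metallothioneins and NRF2 targets and 15.4% of heat shock chaperones higher against 1.73% over all genes. Of 32 metallothioneins and NRF2 targets, 5 were higher and 0 lower (median 0.25). The metal-binding Mt2 was 84.5 CPM in WT_VILI and 314 CPM in KO_VILIhigh, heme oxygenase Hmox1 62.9 and 158 CPM, and Srxn1 182 and 378 CPM. Of 26 heat shock chaperones, 4 were higher and 0 lower (median 0.21), with the inducible Hspa1b at 20.6 and 56.6 CPM. In unventilated lungs Hspa1b was 26.3 CPM in wild type and 109 CPM in the knockout, a log2 fold change of 2.08 against 1.46 after ventilation, and the difference was not called (adjusted p = 0.774, approximate test). The constitutive Hspa8 had a log2 fold change of 0.43 and was not called.

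Of 31 genes of the unfolded protein and integrated stress responses 1 was higher, Ppp1r15a (GADD34, 163 and 366 CPM), and 2 were lower, Vldlr (99.1 and 56.2 CPM) and the amino acid transporter Slc7a5 (86.6 and 46.3 CPM). Of 21 p53 targets 4 were higher and 2 lower. Cdkn1a (p21), which halts the cell cycle, was 166 and 379.7 CPM, and Trp53inp1 and Sesn1 fell, with log2 fold changes of -0.91 and -0.97. Of 25 glucocorticoid response genes 4 were higher and 1 lower (median -0.12). The glucocorticoid-induced Hif3a fell from 25.7 to 10.1 CPM, and the called higher members, Cdkn1a, Mt2, Cebpb and Dusp1, are also induced by other stresses. Of 28 hypoxia and glycolysis genes 2 were higher, Adm and the glucose transporter Slc2a1 (50.4 and 98.95 CPM).

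**Figure D2:**
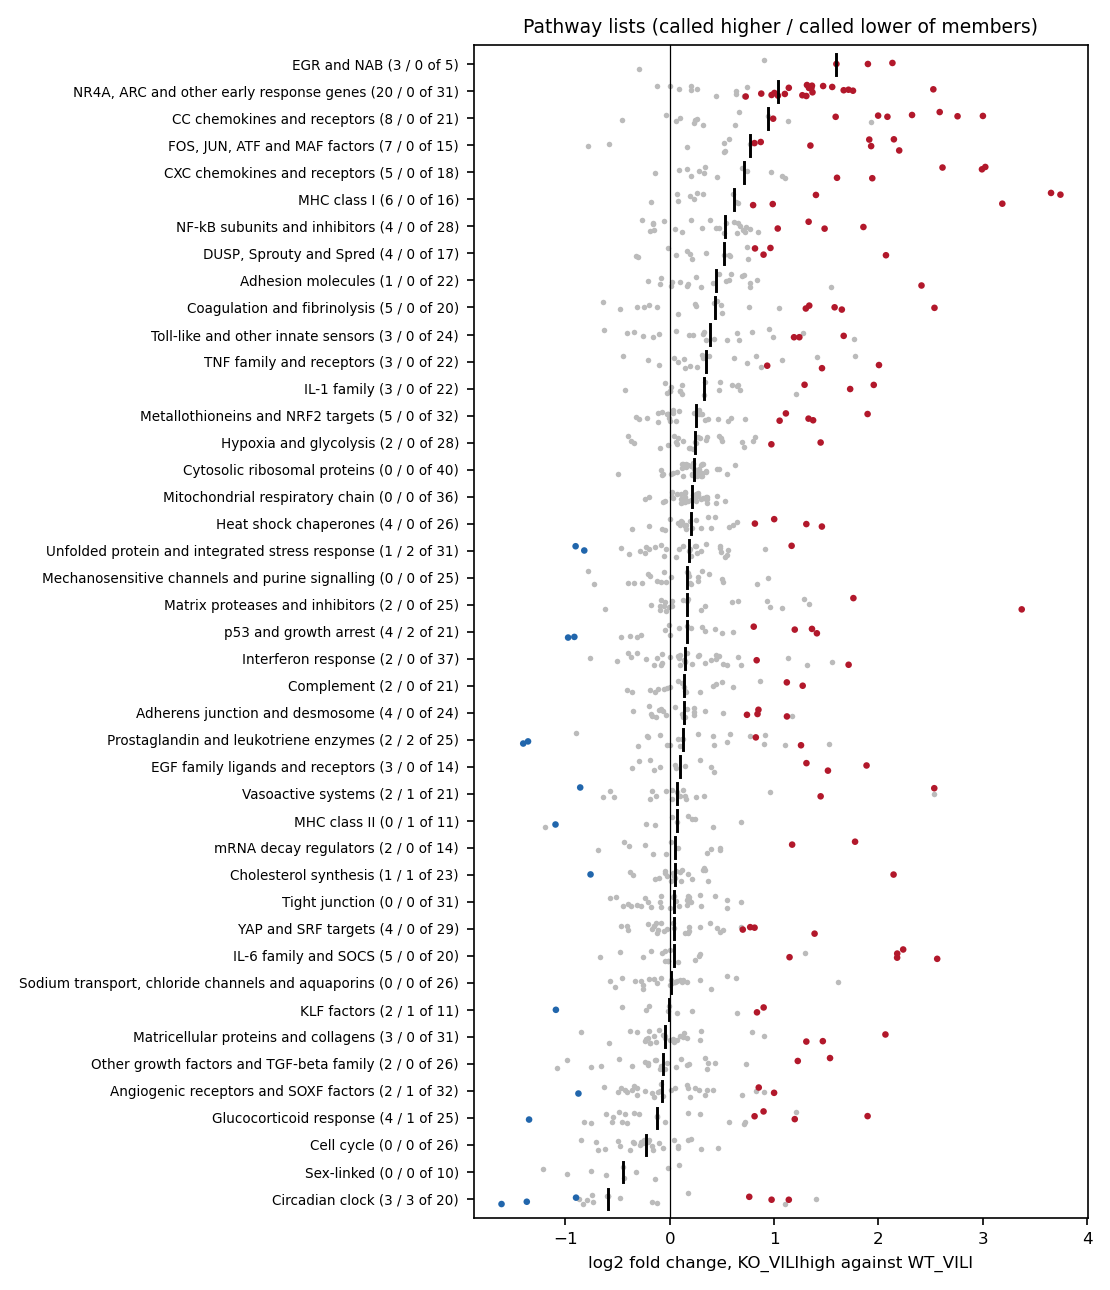
Log2 fold changes between KO_VILIhigh and WT_VILI (horizontal axis) of the members of 43 pathway lists, 1 row per list, sorted by the list median (black bar), with genes called higher in red, called lower in blue and the others in grey. The EGR, early response, chemokine and AP-1 rows lie to the right with medians between 0.71 and 1.60, and the circadian clock row has the lowest median, -0.59.

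The circadian clock list was the only one of 63 lists with a median under -0.5, and its calls went both ways, 3 higher and 3 lower of 20 members. Per3, a period protein, was 97.9 CPM in WT_VILI and 32.02 CPM in KO_VILIhigh (log2 fold change -1.61, adjusted p = 2.21e-09). The output factors Hlf and Tef fell too, from 55.6 to 21.5 CPM and from 532 to 286 CPM. Bhlhe40 and Nfil3, which repress clock genes and also respond to stress, were higher, at 190.1 and 419 CPM and 42.2 and 83.1 CPM. The other member called higher was the clock gene Nr1d1, with a log2 fold change of 0.76 (adjusted p = 0.0276, edgeR). Per1 had a log2 fold change of -0.12 and was not called. The hour of day at which lungs were taken is not given in the sources used here, and its part was not tested.

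The genes that fell also included several of lung metabolism and vessels. Fmo2, a flavin monooxygenase of lung, was 1293, 1507, 1243 and 1323 CPM in WT_noVILI, KO_noVILI, WT_VILI and KO_VILIlow and 664 CPM in KO_VILIhigh, so KO_VILIhigh stood below 4 groups that lay close together (log2 fold change -0.91, adjusted p = 0.000658). Angptl7, a secreted angiopoietin-like protein, was 29.8 CPM in WT_VILI and 30.9 CPM in KO_VILIlow but 6.14 CPM in KO_VILIhigh, near the unventilated levels of 5.59 and 4.86 CPM. Abca1, the cholesterol exporter, fell from 172 to 102 CPM, while Ch25h, which makes 25-hydroxycholesterol, was 17.6 and 77.7 CPM. The nuclear long noncoding RNA Neat1 was lower, at 889 and 457 CPM, and so were the RNA-binding protein Qk, the sodium channel Scn7a and the Rac exchange factor Prex2, with log2 fold changes of -0.73, -0.88 and -0.96.

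The largest falls beyond Cldn4 lay among genes of low abundance. Grp, the bombesin-like peptide of neuroendocrine cells, was 5.41 CPM in WT_VILI and 0.686 CPM in KO_VILIhigh, the cell adhesion gene Cntn4 4.82 and 0.696 CPM, and the zinc finger gene Zfp449 5.65 and 1.22 CPM. Zfp429 was 5.94 and 0.246 CPM, under the 0.5 CPM at which a fold is still read. As a family seen after the values were known, genes whose symbols start with Zfp held 7 called lower and 2 called higher of 309 tested (2.27% and 0.647%, against 0.67% and 1.73% over all genes), with a median of -0.34.

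Several MHC class I genes differed between genotypes with and without ventilation. Of 16 members 6 were called higher and 0 lower (median 0.62). H2-K2 was 10.1 CPM in WT_noVILI and 186 CPM in KO_noVILI, 6.84 CPM in WT_VILI, 67.6 CPM in KO_VILIlow and 91.7 CPM in KO_VILIhigh (log2 fold change against WT_VILI 3.74, adjusted p = 2.15e-30). H2-M2 was 1.24 and 15.6 CPM and H2-Bl 0.966 and 8.8 CPM, and every knockout group exceeded both wild type groups in all 3. These genes share reads with near-identical copies and differ between mouse strains, so their counts are uncertain, and the classical H2-K1 and H2-D1 had log2 fold changes of 0.08 and 0.26 and were not called. Chromosome 17, which carries the MHC, had 28 called of 685 genes tested (4.09%), against 2.4% over all genes. Chromosomes 15 and 4 had 3.66% and 3.39%. Of 37 interferon response genes 2 were higher and 0 lower (median 0.15), Irf1 and Rsad2, with log2 fold changes of 0.83 and 1.71. Of 11 MHC class II genes 1 was lower, H2-Ob (median 0.07), and of 21 complement genes 2 were higher, the anaphylatoxin receptor C5ar1 and properdin, Cfp (median 0.14).

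Apart from Cldn4, the calls among junction and transport genes were keratins and a nectin, all counted in the adherens junction and desmosome list. Of 31 tight junction genes other than Cldn4, 0 were called by the authors' edgeR test, and their log2 fold changes ran from -0.57 to 0.68 with a median of 0.04, and 3 had an unadjusted p under 0.05. Cldn18, a main claudin of alveoli, was 1059 CPM in WT_VILI and 999.8 CPM in KO_VILIhigh, and Tjp1 had a log2 fold change of -0.51 (adjusted p = 0.206). The adherens junction and desmosome list, which also counts keratins, had 4 of 24 members higher (16.7%, against 1.73% over all genes) and 0 lower. These were the simple epithelial keratins Krt8, Krt18 and Krt19, with log2 fold changes of 0.74, 0.85 and 0.84, and the nectin Pvrl2, with 1.12. No cadherin, catenin, desmoglein, desmocollin or plakophilin of the list was called. Of 26 genes of sodium transport, chloride channels and aquaporins, 0 were called (median 0.02), with Aqp1 at 1167 and 1104 CPM. Of 25 mechanosensitive channel and purine signalling genes 0 were called either (median 0.17), with Piezo1 at 231 and 263 CPM. An unadjusted p under 0.05 in the authors' edgeR test was reached by 4 of these 26 and 5 of these 25 genes.

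Housekeeping lists held 0 calls by the authors' edgeR test. The 40 cytosolic ribosomal protein genes had a median log2 fold change of 0.23 and the 36 respiratory chain genes one of 0.21, and 36 and 32 of them were above 0. The 26 cell cycle genes had a median of -0.23. An unadjusted p under 0.05 was reached by 3 ribosomal, 1 respiratory chain and 0 cell cycle genes. Called genes with the highest logCPM included Thbs1 and Egr1. Fold changes of exactly 0 were deposited for 166 genes, 74 of them with a logCPM of at least 3, including Sftpc and Scgb1a1, and no statement is made on those.

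Some markers of neutrophils, platelets and red blood cells were also called higher in KO_VILIhigh, and their part in the gene groups above was not tested. Counts and medians of marker lists cover only members past the abundance minimum, which 9 of 31 listed neutrophil genes, 5 of 14 platelet genes and 2 of 9 red cell genes did not reach. Neutrophil markers were above 0 in 22 of 22 members, with 6 called higher, 0 lower and a median of 1.09. Their summed level was 605 CPM in WT_noVILI, 675 CPM in KO_noVILI, 1039 CPM in WT_VILI, 1465 CPM in KO_VILIlow and 1904 CPM in KO_VILIhigh. Among them the granule protein Ngp was 13.1 CPM in WT_VILI and 41.5 CPM in KO_VILIhigh, Padi4, which acts in extracellular traps, 3.27 and 12.01 CPM and Ltf 10.5 and 40.6 CPM. S100a8 and S100a9, both calcium-binding proteins of neutrophils, had log2 fold changes of 0.90 and 0.75 that did not pass (adjusted p = 0.603 and 0.863).

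Platelet markers were called higher in 4 of 9 members and lower in 0 (median 1.05), with summed levels of 65.2, 79.7, 90.8, 163 and 178.5 CPM over the 5 groups in the order WT_noVILI, KO_noVILI, WT_VILI, KO_VILIlow and KO_VILIhigh. Red blood cell markers were called higher in 4 of 7 and lower in 0 (median 1.77), with sums of 3669, 6325, 977.5, 3453 and 3135 CPM. Wild type ventilated lung was the lowest group for red cell markers, and both ventilated knockout groups lay near unventilated wild type. How the lungs were drained of blood is not given in the sources used here.

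Of 17 monocyte markers 2 were higher and 0 lower (median 0.31), and the defining receptors gave no more calls: the members called were Nr4a1 and Chi3l3. Of 22 alveolar macrophage markers 2 were called, the scavenger receptor Marco (4.42 and 18.3 CPM) and Chi3l3 (105 and 252 CPM). Plasma cell markers were called higher in 3 of 7, with the immunoglobulin joining chain Igj at 44.5, 206, 50.8, 254 and 295 CPM over the 5 groups, higher in each knockout group than in either wild type group. Of 19 B cell markers 1 was lower, H2-Ob, and 0 higher, with sums of 399.9, 147.0, 256, 94.9 and 253 CPM. Of 25 T and NK cell markers 0 were called by the authors' edgeR test (median 0.30), with 4 at an unadjusted p under 0.05, and of 10 markers of dendritic cells, eosinophils, mast cells and basophils 1 was, Ccl22.

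Several airway secretory genes were higher in KO_VILIhigh. Of 22 club and secretory cell markers 6 were called higher and 0 lower (median 0.61). The 6 include Ltf, which is also counted among the neutrophil markers above. Reg3g, an antimicrobial lectin, stood at 0.537, 0.8, 1.43, 2.88 and 20.7 CPM over the 5 groups, and its highest level was in KO_VILIhigh (log2 fold change from WT_VILI 3.86, approximate SE 0.61, adjusted p = 1.07e-07). Bpifa1 was 15.6 CPM in WT_VILI and 190.5 CPM in KO_VILIhigh and Bpifb1 14.6 and 65.6 CPM, both secreted airway defence proteins. Lypd2 was 13.2 and 37.9 CPM. The club cell enzyme Cyp2f2 was not called (2332 and 2630 CPM), and of 28 ciliated cell markers 0 were called by the authors' edgeR test, with 2 at an unadjusted p under 0.05.

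Lists of resident lung cells differed in their calls, against 1.73% higher and 0.67% lower over all genes. By the authors' edgeR test 0 of 23 alveolar type 1 markers (median -0.09) and 0 of 23 fibroblast markers (median -0.01) were called, with 3 of each at an unadjusted p under 0.05. Of 21 smooth muscle and pericyte markers 1 was higher, Tagln (median 0.05). Of 32 endothelial markers 1 was higher, Selp, and 1 lower, Hpgd (median -0.07). Of 26 alveolar type 2 markers 3 were lower (11.5%) and 0 higher (median -0.12): Chi3l1, Sfta2 and the lamellar body protein Lamp3, which was 692 CPM in WT_VILI and 438 CPM in KO_VILIhigh (adjusted p = 0.0396). Chi3l1 was 315 CPM in WT_noVILI and 105 CPM in KO_noVILI, 395 CPM in WT_VILI and 124 CPM in KO_VILIhigh, so the genotype difference was present without ventilation.

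Markers of heart muscle, fat and skeletal muscle were also measured. Cardiac muscle markers were above 0 in 22 of 22 members, with 3 called higher and 0 lower (median 0.83), and sums of 1185, 523, 818, 1878 and 1343 CPM over the 5 groups. Fat markers were above 0 in 14 of 14, with 3 called (median 0.99), of which Ucp1 stood at 0.264 CPM in WT_VILI, under the 0.5 CPM at which a fold is still read, and of 7 skeletal muscle markers 0 were called by the authors' edgeR test (median 1.01), with 2 at an unadjusted p under 0.05. Of 8 mesothelium and thymus markers 0 were called and 1 had an unadjusted p under 0.05 (median 0.14). Myh6, a cardiac myosin heavy chain, was 257 CPM in WT_VILI and 398 CPM in KO_VILIhigh and was not called. The summed cardiac marker level thus differed between the groups, and its part in other genes was not tested.

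**Figure D3:**
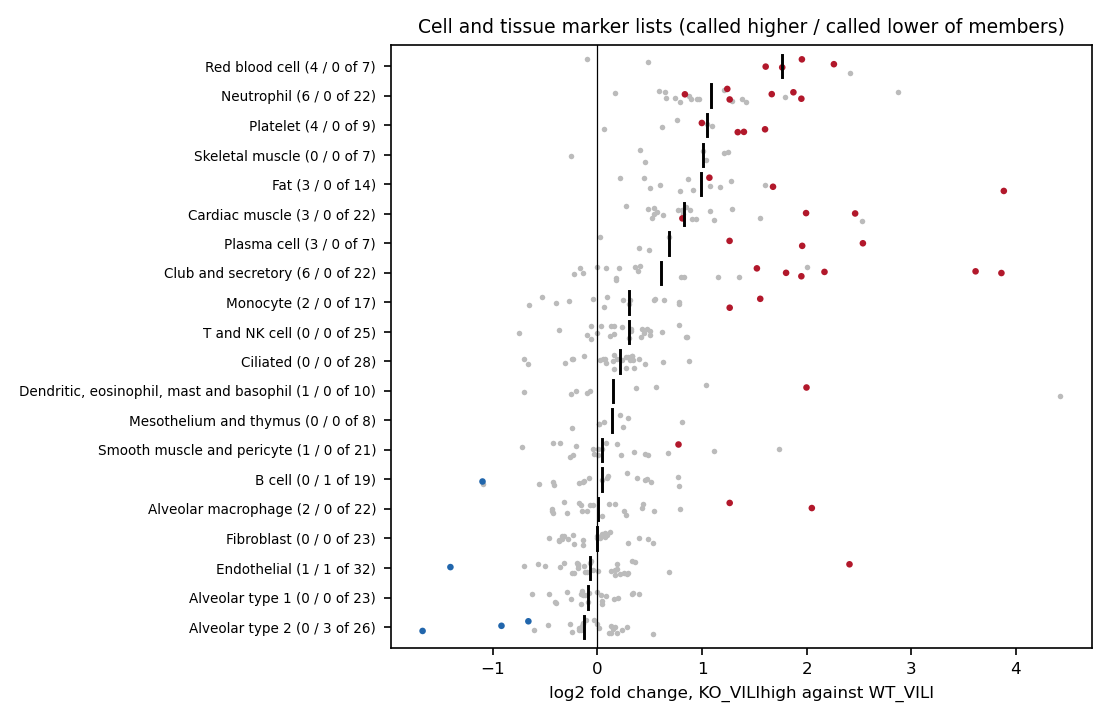
Log2 fold changes between KO_VILIhigh and WT_VILI (horizontal axis) of the members of 20 cell and tissue marker lists, 1 row per list, sorted by the list median (black bar), with genes called higher in red, called lower in blue and the others in grey. Red blood cell, neutrophil, platelet and skeletal muscle rows have medians above 1, fat and cardiac muscle follow at 0.99 and 0.83, and alveolar and endothelial rows lie around 0.

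The low-injury knockout, compared with the same WT_VILI libraries, gave 200 called genes of 13635 (1.47%), 140 higher (1.03%) and 60 lower (0.44%). Because both tables share that reference, their values are set side by side and not correlated. The difference between both knockout groups was taken as the difference of the deposited fold changes, in which WT_VILI cancels while its variance is still counted. It called 21 of 12696 genes (0.165%) at an adjusted p of 0.05, 19 higher (0.15%) and 2 lower (0.0158%) in KO_VILIhigh, by an approximate normal test. With the mean of both variances in place of their sum, the count was 133.

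Ccl2 differed most clearly, at 11.5 CPM in KO_VILIlow and 66.6 CPM in KO_VILIhigh, a difference of 2.53 log2 (approximate SE 0.43, adjusted p = 2.52e-05). Ccl7 differed by 2.12, Ccl3 by 1.82, Cxcl1 by 1.69, Fosb by 1.95 and Fos by 1.70 log2, all higher in KO_VILIhigh. The B cell gene Fcrla also differed, by 2.67 log2, and it stood at 6.22 CPM in WT_VILI, 1.4 CPM in KO_VILIlow and 8.86 CPM in KO_VILIhigh, so the low-injury group was the lowest of the 3. The 2 genes lower in KO_VILIhigh were Angptl7 (log2 difference -2.34) and Per3 (log2 difference -1.18). Bdkrb2, by contrast, stood at 28.6 CPM in KO_VILIlow and 31.6 CPM in KO_VILIhigh, and the neuronal pentraxin Nptx1 at 46.04 and 28.9 CPM against 2.3 CPM in WT_VILI.

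**Figure D4:**
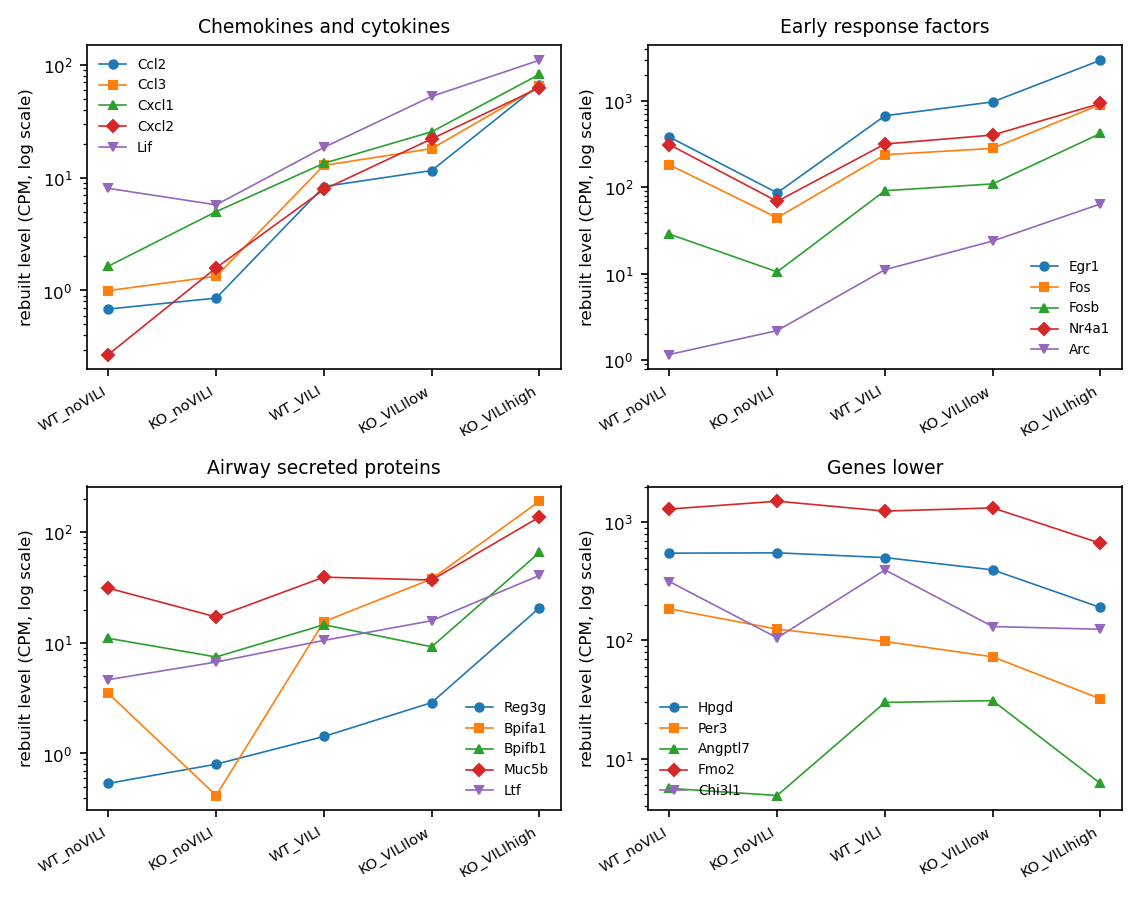
Rebuilt group levels in CPM (vertical axis, log scale) of 20 genes over the 5 groups, 1 point per group with no replicate error, and lines that only join the points of a gene. The 5 chemokine and cytokine genes and the 5 early response genes are highest in KO_VILIhigh, where Hpgd, Per3 and Fmo2 are lowest of the 5 groups, and Muc5b was picked for the plot after its values were seen.

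The unventilated comparison, KO_noVILI against WT_noVILI, shares no library with this one and called 676 of 13638 genes (4.96%), 285 higher in the knockout (2.09%) and 391 lower (2.87%). Of the 237 genes higher in KO_VILIhigh, 46 (19.4%) were also higher in the unventilated knockout, where they make up 16.1% of the 285 genes called higher. Of the genes described above, these 46 include the MHC genes H2-K2, H2-M2, H2-Bl and H2-Q10, the chemokines Cxcl1 and Ppbp, the plasminogen activators Plau and Plat, the neutrophil markers Ngp and Padi4, and Cd14, Cdkn1a, Spp1, Nfil3, Pvrl2, Igj, Bdkrb2, Marco, Hspa1a and Hspa1b. Cxcl1 was 1.64 CPM in WT_noVILI and 4.99 CPM in KO_noVILI (adjusted p = 0.0213, edgeR), and Plau was 16.2 and 33.4 CPM (adjusted p = 0.00276), so their genotype difference was also called without ventilation and injury. Of the 92 genes lower, 26 (28.3%) were lower in the unventilated knockout too, 6.65% of its 391, among them Cldn4, Chi3l1, Sfta2, H2-Ob, Per3, Tef and Grp. For 177 of the genes higher and 66 of those lower, no call was made without ventilation.

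A further 14 genes higher in KO_VILIhigh were called lower in the unventilated knockout, and 0 genes showed the opposite. They were Btg2, Egr1, Egr3, Fos, Fosb, Nr4a1, Ier2, Cyr61, Junb, Bpifa1, Dusp1, Zfp36, Nr1d1 and Apold1, mostly early response genes and their feedback regulators, with the clock gene Nr1d1, the vessel gene Apold1 and the airway gene Bpifa1 besides. Egr1 was 382 CPM in WT_noVILI and 86.3 CPM in KO_noVILI, the lowest of the 5 groups, and 673 and 2956 CPM in WT_VILI and KO_VILIhigh, the highest. Nr4a1 was 312 and 68.9 CPM without and 317 and 934 CPM with ventilation. For Nr4a1 both wild type groups were thus at nearly the same level, and the knockouts lay below it without ventilation and above it with ventilation and high injury.

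The difference between the genotype effect with ventilation and without it was tested approximately from the deposited fold changes, and it was called in 201 of 12782 genes (1.57%), 152 higher (1.19%) and 49 lower (0.383%). It was 4.28 log2 for Egr1 (approximate SE 0.47, adjusted p = 2.05e-16), 3.95 for Fos, 3.72 for Nr4a1, 3.64 for Fosb and 3.64 for Egr3. Ttn and Xirp1, genes of striated muscle, differed by 3.14 and 3.08 log2, although neither passed in KO_VILIhigh against WT_VILI, and cardiac markers moved with them as given above. On the other side were Pianp (log2 difference -4.67), Cntn4 (-3.58) and the T cell chemokine Ccl5 (-2.61). Pianp (adjusted p = 0.0859, edgeR) and Ccl5 did not pass in KO_VILIhigh against WT_VILI, while Cntn4 did. Ccl5 was 8.58 CPM in WT_noVILI and 53.8 CPM in KO_noVILI but 9.66 and 10.4 CPM in WT_VILI and KO_VILIhigh. Injury, ventilation and the sex difference seen above in Ddx3y and Xist cannot be told apart in this difference.

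**Figure D5:**
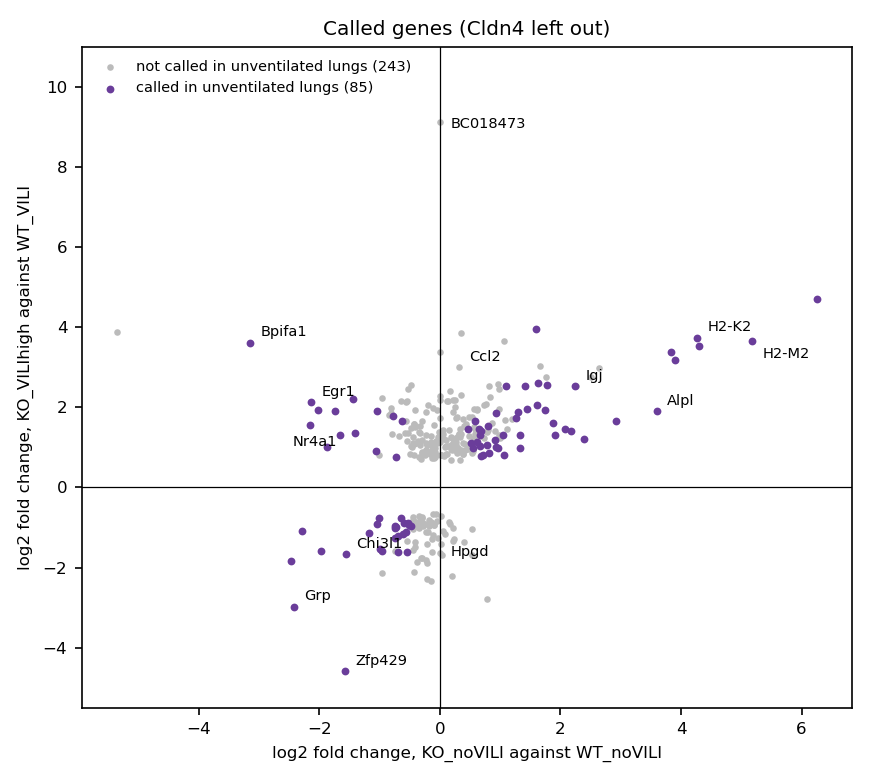
The 328 called genes other than Cldn4, with the log2 fold change of KO_noVILI against WT_noVILI (horizontal axis) and of KO_VILIhigh against WT_VILI (vertical axis), 2 comparisons that share no library. The 85 genes called in both (purple) lie in the upper right, the lower left and, for early response genes, their feedback regulators, Bpifa1, Nr1d1 and Apold1, the upper left, and 0 of them lie in the lower right.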

How the data were processed

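RNA of whole lungs was sequenced after TruSeq library preparation, per the labels' protocols. Bowtie 1.1.2, mouse build mm9, R 3.0.1 and edgeR are named, per the submitters' processing notes, while the counting, the filter on genes and the edgeR settings are not given in the sources used here. The authors deposited 4 comparison tables over 21590 genes, with log2 fold changes (headed logFC) and mean abundances (logCPM) per the file headers, which do not give the log base. The authors also made, per the file headers, a p-value per gene and an FDR, which is the adjusted p used here, over their whole table. Values per library were not used here (0 columns), so depth is unknown and no value has a replicate SD.

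Group levels in CPM were rebuilt from logFC and logCPM with equal weight for both groups. For the other 4 groups they come from tables normalised separately, which limits levels set side by side. An approximate SE is the size of a deposited fold change over the normal quantile of its p, with a median of 0.273 log2 over genes. Differences between 2 comparisons summed those variances, with Benjamini-Hochberg adjustment over genes with a logCPM of at least 1 in both tables. Where WT_VILI cancels, the variance is too large, and in the difference against unventilated lungs it is not. For 1028 and 942 of the 13724 genes no difference could be formed. These steps were tested on simulated data. Values under 0.5 CPM give no fold.

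The genes and the 63 lists (1419 symbols, 20 absent) were chosen with earlier results of these data known. Named with values are Cldn4, the 15 largest rises and falls, the 10 most abundant called genes each way, up to 5 called members of each list by p and its 2 most abundant members not called, and up to 8 genes each way in the 2 differences, predicted genes left out. Genes given by name alone complete a count, and a few genes that the rule names are not reported here. Genes were matched by Entrez identifier to RefSeq (GRCm38.p6, 21534 matched), used for names, chromosomes, gene order and upstream sequence, and it restored 27 symbols that had turned into dates. Alternatives were a stricter adjusted p, Bonferroni adjustment, other abundance minimums, a 2-fold minimum, centring, leaving out the sex chromosomes and another variance. Computation used scipy 1.17.1 and pandas 2.3.3 on Python 3.11.15 with numpy 2.4.6, and plots used matplotlib 3.10.9.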

Additional observations from a re-analysis of the deposited data

Results flagged for a closer look

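Some genes differed between both ventilated knockout groups by the approximate test of that difference itself, 21 in all. Given as log2 differences of KO_VILIhigh from KO_VILIlow, the named ones were Fcrla at 2.67, Ccl2 at 2.53, Ccl7 at 2.12, Fosb at 1.95, Ccl3 at 1.82, Fos at 1.70 and Cxcl1 at 1.69. Angptl7 (-2.34) and Per3 (-1.18) were lower in the high-injury group. Both groups were formed by the injury of the animals, so injury and these levels were not separated by design.

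The genotype difference with ventilation and high injury differed from that without ventilation in 201 genes by the approximate test. The log2 differences were 4.28 for Egr1, 3.95 for Fos, 3.72 for Nr4a1, 3.64 for Egr3 and 3.64 for Fosb, all early response genes. The muscle genes Ttn and Xirp1 differed by 3.14 and 3.08. In the other direction stood Pianp at -4.67, Cntn4 at -3.58, Ccl5 at -2.61, Zfp449 at -2.42 and Gpr179 at -2.23. Genes with a group under 0.5 CPM, such as Cldn4, Bpifa1 and Zfp429, are left out of these values because their fitted fold changes are no estimates.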

How the results depend on the processing

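The 329 called genes (237 higher, 92 lower) became 213 at an adjusted p of 0.01, with 44 lower, and 121 with Bonferroni adjustment, 103 higher and 18 lower. A 2-fold minimum left 53 lower. The 21 genes that differed between both knockout groups became 133 with the mean of both variances. The other alternatives tried, which were a new Benjamini-Hochberg adjustment over genes with a logCPM of at least 1, other abundance minimums, centring and leaving out the sex chromosomes, kept the counts of called genes within 1.5 times. Of the 173 named genes that were called, 91 lost the call under Bonferroni adjustment and 82 kept it, and 2 of the 127 others gained one under the new Benjamini-Hochberg adjustment. Counts of called members moved by more than 1.5 times in 12 of the 63 lists at an adjusted p of 0.01 and in 3 under the new Benjamini-Hochberg adjustment. No direction reversed under the alternatives run. No paired analysis was possible because the deposited tables hold no value per library, and for the same reason no library could be left out in turn. Unknown depth and 2 libraries per group limit every value, most of all for genes of low abundance.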

Other observations

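Some further called genes, chosen after their values were seen, belong to no list described above. Rprl1, a noncoding RNA gene related to the RNA of ribonuclease P, was 54.8, 185, 55.9, 242 and 329 CPM in WT_noVILI, KO_noVILI, WT_VILI, KO_VILIlow and KO_VILIhigh, so every knockout group exceeded both wild type groups. Alpl, tissue-nonspecific alkaline phosphatase, was 4.68, 53.7, 17.8, 56.4 and 66.7 CPM over the same groups, again with the knockouts above wild type. The predicted genes Gm11127, Gm8909 and Gm7030 had log2 fold changes of 4.72, 3.39 and 3.54 against WT_VILI. BC018473 stood at 0.0255 CPM in WT_VILI and 14.3 CPM in KO_VILIhigh, and no fold is given for it.

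Other signalling and defence genes were called higher in KO_VILIhigh. Ptx3, a secreted pattern recognition protein, was 5.59 CPM in WT_VILI and 21.5 CPM in KO_VILIhigh, Pigr, which carries immunoglobulin A across epithelium, 30.7 and 73.5 CPM, and the chitinase Chia 75.9 and 179.5 CPM. Rcan1, a calcineurin inhibitor, was 252 and 574 CPM, and Sphk1, which makes sphingosine 1-phosphate, 79.9 and 169 CPM. Among genes called lower, the Wnt co-receptor Lrp6 was 273 and 165 CPM, the Hedgehog inhibitor Hhip 95.5 and 44.1 CPM and the cyclic GMP phosphodiesterase Pde5a 376 and 237 CPM. The adjusted p-values of the 8 genes of this paragraph, from the authors' edgeR test, ran from 3.46e-06 to 0.0355.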
